A study of Caenorhabditis elegans with 2 samples.

Results

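The genes vha-1, vha-2, vha-8 and vha-13 encode subunits of the vacuolar ATPase of C. elegans. In the set called between the replicates, each had a peak summit of GFP-tagged MADF-9 near its annotated start. The summits lay in a window from 1000 bp before that start to 200 bp after it. These genes are 4 of the 21 vacuolar ATPase genes considered and of 19973 nuclear protein-coding genes. The genes were chosen by the peak calls and signal values of this experiment, so their presence among the peaks is not a finding and was given no test. The data are chromatin immunoprecipitation followed by sequencing (ChIP-seq) with an antibody against GFP per the samples' descriptions (the antibody field of the labels names madf-9 itself) in strain RW12324, which carries a CRISPR insertion of TY1, EGFP and 3xFLAG at madf-9 on chromosome IV. There was 1 group, whole L4 larvae at 48 hours of age that had been synchronised as starved L1 larvae, with 2 replicates that the labels number as biological. All animals carried the tag, and a signal from whole larvae does not say in which tissue a promoter was occupied.

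The vacuolar ATPase is a rotary proton pump in the membranes of lysosomes, endosomes and other acidic compartments. Its cytosolic V1 sector hydrolyses ATP and turns a rotor, and its membrane sector, V0, lets protons pass through a ring of proteolipid c subunits. In the worm the pump acidifies the intestinal lumen, the lysosomes and the canals of the excretory cell. MADF-9 carries a MADF domain, which resembles the Myb domain and binds DNA.

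The authors' peak lists give each region a summit, a signal (the strength the peak caller assigned, in units the files do not name) and a score made from the irreproducible discovery rate, or IDR. A low IDR needs a region to rank high in both inputs alike, and a region passed at an IDR of at most 0.01. The main set, called between the replicates, held 1637 peaks. Replicate 1 alone gave 1002 peaks and replicate 2 alone 806. The promoter window ran from 1000 bp before an annotated transcript start to 200 bp after it, and a gene with a summit there is called bound. By this rule 4.71% of protein-coding genes were bound in the main set, 3.19% in replicate 1 alone and 2.46% in replicate 2 alone. The read depth is unknown, and the library that served as control was not analysed here, so no background level stands beside these signals.

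The 260 bp of 3 of the 4 peaks are shown because they differ in where the summit falls: between divergent genes (vha-1 and vha-8) or at the first codons (vha-2). They are read from the RefSeq copy of WBcel235 (ce11), on the plus strand, which is the coding strand of all 4 genes. Capitals mark the 101 bases centred on the summit. The vha-1 peak is chrIII:9780734-9780993, the vha-2 peak is chrIII:9782065-9782324, and the vha-8 peak is chrIV:6790524-6790783.
vha-1: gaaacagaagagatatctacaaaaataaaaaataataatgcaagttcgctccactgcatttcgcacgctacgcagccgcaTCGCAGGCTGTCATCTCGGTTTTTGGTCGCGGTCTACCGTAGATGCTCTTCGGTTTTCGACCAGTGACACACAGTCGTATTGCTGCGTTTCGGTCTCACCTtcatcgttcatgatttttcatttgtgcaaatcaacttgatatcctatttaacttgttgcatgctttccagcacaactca
vha-2: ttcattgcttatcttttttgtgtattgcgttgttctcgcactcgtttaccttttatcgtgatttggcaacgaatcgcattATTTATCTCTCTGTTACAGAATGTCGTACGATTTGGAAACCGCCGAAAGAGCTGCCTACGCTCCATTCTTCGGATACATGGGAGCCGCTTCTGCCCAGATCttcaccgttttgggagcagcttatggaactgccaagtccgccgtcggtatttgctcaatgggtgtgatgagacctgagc
vha-8: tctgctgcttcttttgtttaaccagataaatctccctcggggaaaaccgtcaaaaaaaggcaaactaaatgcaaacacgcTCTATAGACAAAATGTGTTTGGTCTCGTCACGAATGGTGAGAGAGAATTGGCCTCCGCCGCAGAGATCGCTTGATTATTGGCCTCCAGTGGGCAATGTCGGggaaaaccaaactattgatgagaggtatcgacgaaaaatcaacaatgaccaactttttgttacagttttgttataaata
The vha-13 peak, chrV:14351052-14351311, lies wholly inside an annotated 3′ untranslated region, and its letters are not printed.

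The subunits c of the V0 rotor are encoded by vha-1 and vha-2, which stand in tandem on chromosome III. The gene vha-1 (WBGene00006910, chrIII:9781254-9781763, plus strand) had a peak of signal 113 in the main set. Its summit, at 9780864, lies 390 bp upstream of the annotated start, which is also the first base of the coding sequence. No annotated gene covers it. It sits in the 899 bp between vha-1 and sqv-3, a gene on the other strand that encodes a galactosyltransferase of glycosaminoglycan synthesis, and it lies 510 bp upstream of the sqv-3 start. The peak therefore falls in the promoter windows of both genes, and the data do not assign it to one of them.

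The gene vha-2 (WBGene00006911, chrIII:9782164-9783224, plus strand) begins 400 bp after vha-1 ends. Its peak had a signal of 88.9, with the summit at 9782195, 31 bp downstream of the start and inside the coding part of the first exon. The summits of vha-1 and vha-2 are 1331 bp apart, on either side of the vha-1 gene. The annotated start of vha-2 lies 1 bp before its coding start, and in the printed peak the ATG of the coding start follows the capitals TTACAGA. Many worm messenger RNAs receive a spliced leader in place of their original 5′ end, so an annotated start can lie downstream of the place where transcription begins. The same summit also lies 811 bp upstream of R10E11.6, annotated by RefSeq as an EF-hand domain protein, whose start is inside the span of vha-2.

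The subunit E of the V1 stalk is encoded by vha-8 (WBGene00006917, chrIV:6791074-6792455, plus strand). Its peak had a signal of 86.7 and a summit at 6790654, 420 bp upstream of the start and under no annotated gene. The gap to the divergent neighbour C17H12.2, annotated as a Mab-21 domain protein, is 585 bp, and the summit lies 166 bp upstream of that gene's start. It is thus nearer to C17H12.2 than to vha-8, and vha-8 is not bound when each peak is given only to its nearest start. The annotated noncoding RNA genes C17H12.33 and C17H12.30 start 539 bp and 762 bp before the summit, on the strand of vha-8.

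The catalytic subunit A of V1, which binds and hydrolyses ATP, is encoded by vha-13 (WBGene00013025, chrV:14351709-14354422, plus strand). Its peak had a signal of 79.7 and a summit at 14351182, 527 bp upstream of the start. All 260 bases of the peak are annotated as 3′ untranslated region of cept-2, a gene for a cholinephosphotransferase of phospholipid synthesis on the same strand. Only 226 bp separate the end of cept-2 from vha-13. Of the 4 genes, vha-13 is the one whose peak falls in the promoter window of no other protein-coding gene.

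**Figure D1:**
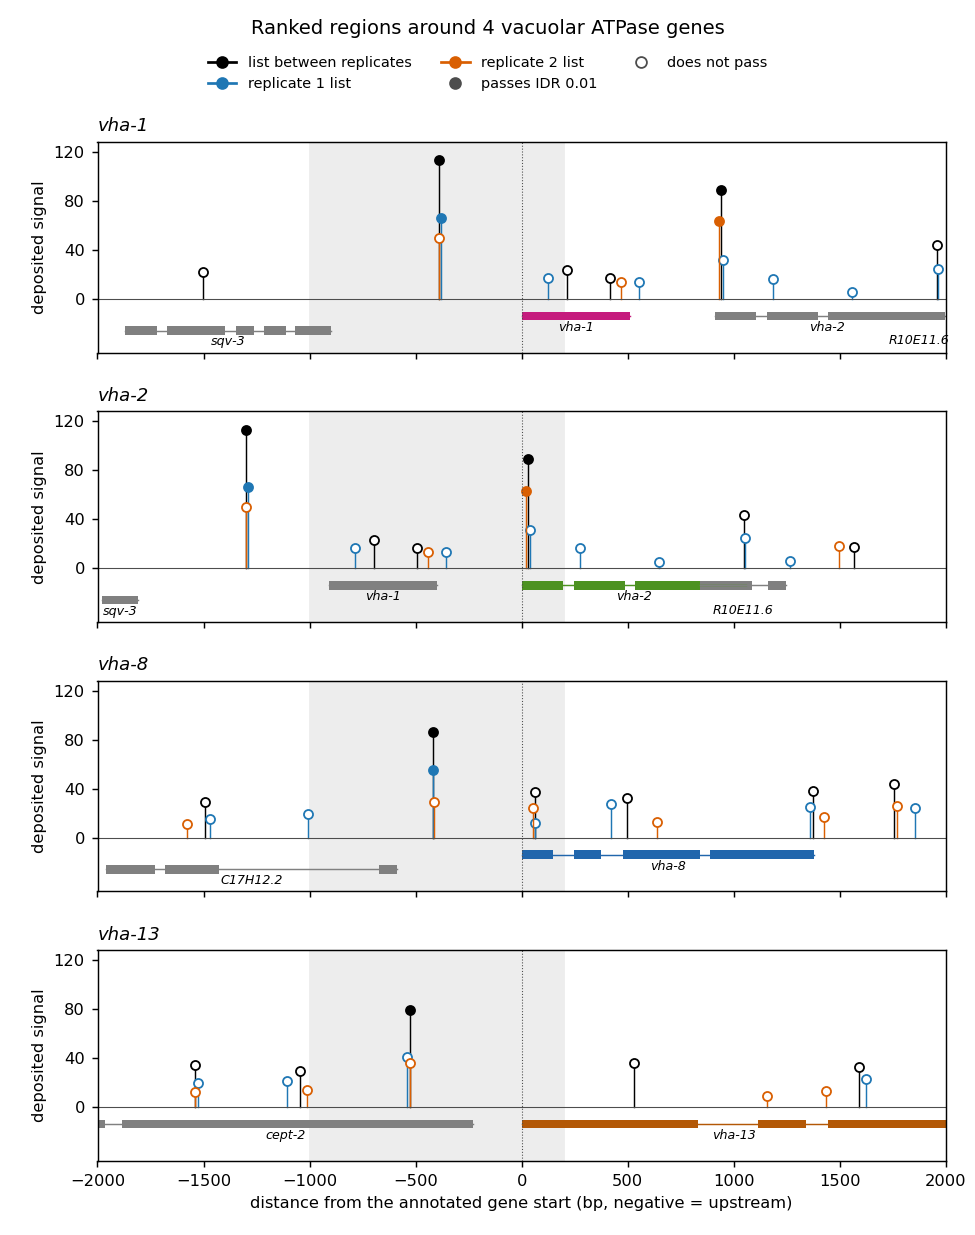
Signal of every ranked region within 2000 bp of the start of each gene, against distance from that start, in the list between replicates and in each replicate's own list. Filled points passed an IDR of 0.01, the grey band is the promoter window, and bars below 0 are exons of protein-coding genes, with genes on the other strand one step lower. In the list between replicates 1 region passes in each window, at 390, 420 and 527 bp upstream for vha-1, vha-8 and vha-13 and at 31 bp downstream for vha-2.

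The surroundings of the genes held further regions that did not pass. Within 5000 bp of the genes the list between replicates ranked from 12 regions (vha-2) to 18 regions (vha-13). The strongest of those that did not pass had a signal of 46.4 near vha-1, 43.7 near vha-2, 56.8 near vha-8 and 55.0 near vha-13, each below the passing peak of its gene. Inside the promoter windows such regions were found at vha-2, with 23.3 at -697 bp and 16.7 at -495 bp, and at vha-8, with 37.6 at 63 bp downstream of the start. The nearest annotated tRNA genes are between 79412 bp (vha-2) and 228381 bp (vha-8) away.

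Set against all peaks, the 4 lay in the middle of the set by signal rather than at its weak end. The main set had a median signal of 89.3, with quartiles of 71.1 and 122, and its highest value was 1259. The vha-1 peak ranked 501 of 1637, so 30.5% of peaks were stronger. For vha-2 the rank was 824, close to the median, with 50.3% stronger. For vha-8 it was 861 with 52.5% stronger, and for vha-13 it was 1005 with 61.3% stronger. Among the 785 peaks with a summit in any protein-coding promoter, whose median was 92.0, between 32.5% (vha-1) and 63.9% (vha-13) were stronger. All 4 had the top score of 1000, and their IDR values were 0.000358 for vha-1, 0.0032 for vha-2, 0.00333 for vha-8 and 0.00226 for vha-13. Low values were common in the set, where 1309 of the 1637 peaks had an IDR of at most 0.005. The vacuolar ATPase genes nearest to the limit, a score of 830, are vha-11 just inside, at 842, and vha-10 just outside, at 760.

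The 785 promoter summits were each measured from the nearest start, and the 4 members from the start of the named gene. Measured so, 3 of the 4 lay farther upstream than the median promoter summit. The middle value over the 785 was -243 bp, and the quartiles were -452 and -113 bp. The vha-13 summit is beyond the farther quartile, with 157 summits still farther upstream. For vha-1, 30.1% of promoter summits were still farther upstream, and for vha-8 27.6%. The vha-8 summit lies 166 bp upstream of its nearest start, that of C17H12.2, and by that measure it is nearer than the median. The vha-2 summit is on the other side, among the 76 promoter summits, 9.68%, that lie downstream of a start. All 4 peaks are 260 bp wide with the summit at the centre, as 1488 of the 1637 peaks are, so neither width nor shape tells them apart.

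The replicates did not give the same picture of the 4 genes. At vha-1 the signal was 66.2 in replicate 1 and 49.7 in replicate 2, and at vha-2 it was 31.5 and 63.4. At vha-8 it was 55.1 in replicate 1 and 29.0 in replicate 2, and at vha-13 it was 41.2 and 35.7. So vha-2 was the weakest of the 4 in replicate 1 and the strongest in replicate 2, while vha-8 stood second in replicate 1 and last in replicate 2. The lists were called separately, so a ratio between their signals has no common scale and is read only against the ratios of other peaks. The summits of the 2 replicates lay 7 bp (vha-8) to 16 bp (vha-2) apart.

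The vha-2 peak had the lowest ratio of replicate 1 to replicate 2 in the set. Its log2 ratio was -1.01, and no other of the 1603 main peaks with values from both replicates had a lower one, while the highest log2 ratio was 1.91. The log2 ratio was 0.93 at vha-8, where 92 peaks had a higher one, and 0.41 at vha-1 and 0.21 at vha-13. Over all these peaks the median ratio was 0.24, and from the 5% to the 95% point it ran from -0.436 to 0.962. The vha-1 and vha-13 ratios lay between the quartiles of -0.0213 and 0.513. Peaks of the main set had been selected for agreement between these replicates, which limits how far apart the signals could be.

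**Figure D2:**
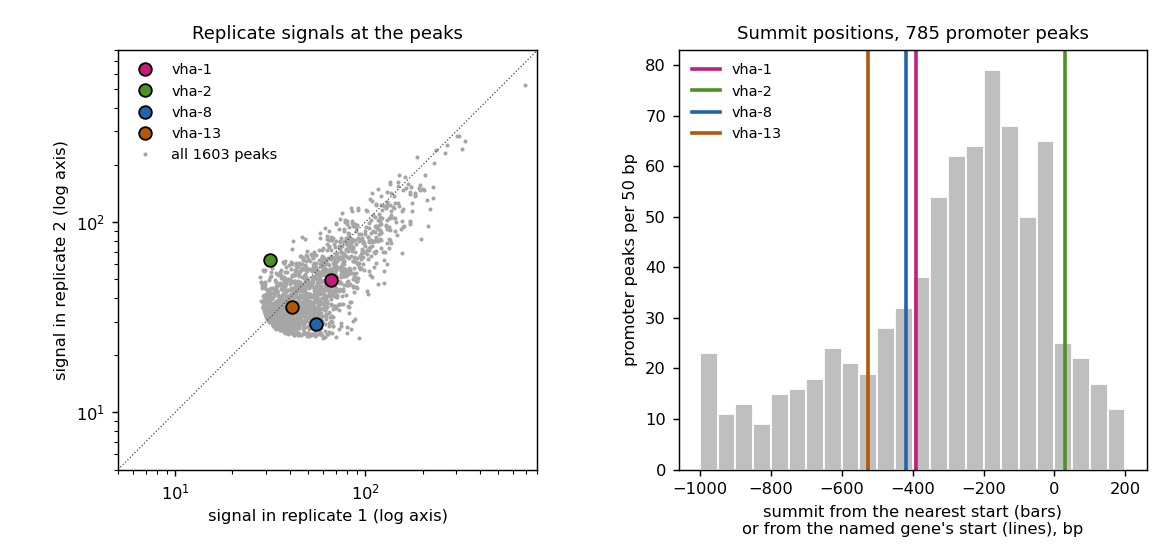
Left, signal in replicate 1 and in replicate 2, both on log axes, at the 4 peaks and at all 1603 main peaks that have both values; the dotted line marks equal values. Right, positions of the 785 promoter summits from their nearest start, in bins of 50 bp, with a line for each of the 4 genes, measured from that gene's own start. The vha-2 point lies at the upper left edge of the cloud, with 31.5 in replicate 1 and 63.4 in replicate 2, and its line falls downstream of the start.

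No gene of the 4 passed in both replicates' own sets. In replicate 1 alone vha-1 and vha-8 were bound, 2 of 4 beside 3.19% of protein-coding genes, and in replicate 2 alone vha-2 was bound, 1 of 4 beside 2.46%. The vha-13 peak passed in neither. Of the 505 main peaks with signals between those of vha-13 and vha-1, 24.0% overlapped a peak of both sets, 40.4% of replicate 1 only, 18.4% of replicate 2 only and 17.2% of neither. In the pooled set, the authors' other set for the whole series, all 4 were bound, beside 4.70% of protein-coding genes.

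A replicate's own set rests on an IDR run between 2 inputs of that replicate, and the files give the signal of each input. At vha-1 in replicate 2 the inputs had 10.9 and 38.7, a ratio of 3.55. The 911 ranked regions that passed in that replicate, more than the 806 peaks of its set, had a median ratio of 1.28. The vha-1 region failed, with an IDR of 0.477, although its signal of 49.7 was above that of 257 of the 806 peaks in the set. The vha-1 peak in replicate 1, with inputs of 38.0 and 25.9, passed. At vha-2 the inputs were close in both replicates, with 14.3 and 17.7 in replicate 1 and 32.2 and 27.3 in replicate 2. There the region of replicate 1, with an IDR of 0.182, had a lower signal than all but 21 of the 1002 passing peaks.

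Like vha-2 in replicate 1, the V1 genes vha-8 and vha-13 had low signals where they did not pass. At vha-8 the inputs were 31.6 and 23.1 in replicate 1, which passed, and 15.3 and 11.0 in replicate 2, which did not (IDR 0.417). Only 13 of the 806 replicate 2 peaks were weaker than vha-8 there. At vha-13 the inputs were 25.7 and 18.1 in replicate 1 and 23.9 and 12.7 in replicate 2. The ratio of the larger to the smaller was 1.42 and 1.88 at vha-13 and 1.37 and 1.39 at vha-8. The ranked regions that passed, 1087 in replicate 1 and 911 in replicate 2, had median ratios of 1.24 and 1.28. The IDR of vha-13 was 0.0184 in replicate 1, just over the limit, and 0.148 in replicate 2, and its signal was above that of 54 of the 1002 and 27 of the 806 passing peaks. How the authors made the inputs is not given in the sources used here.

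**Figure D3:**
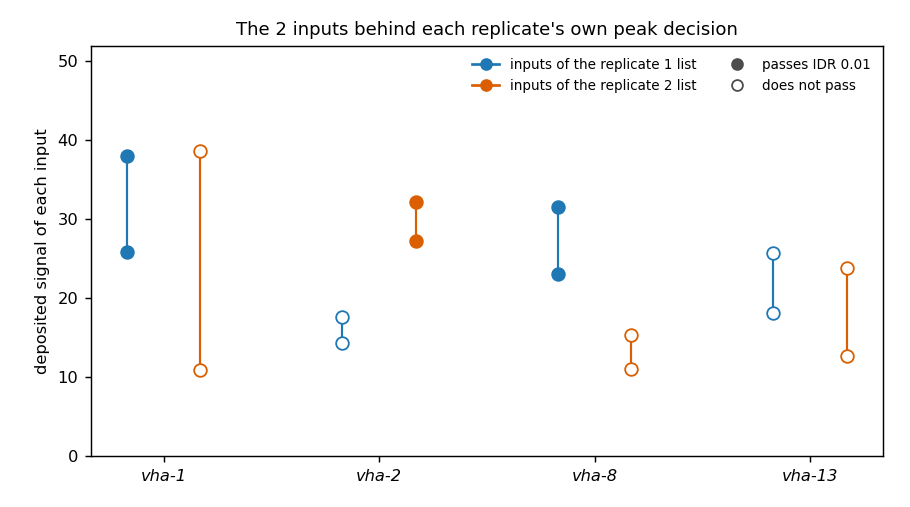
Deposited signal of the 2 inputs of each replicate's own IDR run at the 4 peaks, joined by a line, with filled points where the region passed an IDR of 0.01. The vha-1 inputs of replicate 2 stand farthest apart, at 10.9 and 38.7, and the 3 filled pairs are vha-1 and vha-8 in replicate 1 and vha-2 in replicate 2.

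The summits were richer in G and C than most worm promoters. In the 101 bases around the summit G and C made up 53.5% (vha-1), 49.5% (vha-2), 50.5% (vha-8) and 63.4% (vha-13). All main peaks had a median of 50.5%, with quartiles of 44.6% and 55.4%, and 96.1% of them had no more G and C than vha-13. Windows of the same length centred 250 bp upstream of each protein-coding gene had a median of 33.7% and an upper quartile of 39.6%. Between 95.5% (vha-2) and 99.9% (vha-13) of those promoter windows had a G and C content no higher than that of the member. In all 4 peaks the capitals hold more G and C than the outer 159 bases, which had from 35.8% at vha-8 to 47.8% at vha-13. The vha-2 window is largely coding and the vha-13 window is transcribed, so they differ in kind from the promoter windows. The part that base composition plays in the signal was not tested.

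None of 4 words searched on both strands was found within 50 bp of the 4 summits, nor within 100 bp. The shares that follow are for 50 bp. The word AGACGCAG, known to be frequent at these summits from an earlier look at the data, was in 7.27% of all main peaks and 1.01% of the promoter windows. The word CTGAGCTA, likewise chosen with earlier results known, was in 4.64% of peaks and 0.125% of windows. CACGTG, the core of the E-box that HLH-30 and its mammalian counterpart TFEB bind, was in 4.70% of peaks and 1.58% of windows. TGATAA, a site of intestinal GATA factors, was in 5.19% of peaks and 10.6% of windows. The closest form of AGACGCAG was at vha-1, with 7 of its 8 letters matched. A match of at least 7 letters was in 17.8% of main peaks and 4.65% of promoter windows. The other members matched 6 letters, a match that 64.3% of peaks and 35.1% of windows reached or passed. No match says only that these letters are not in these windows.

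In the list between replicates, whose signal chose the members, the best regions of the other subunit genes had lower signals, where there was a region. The best region is the one with the lowest IDR in the promoter window, which need not have the highest signal. Including the 4 members, 6 of the 21 vacuolar ATPase genes were bound in the main set, 28.6% beside the 4.71% of all protein-coding genes, and since the list holds the members nothing is read from that share. The other 2 bound genes, both of V1, are vha-12, for the nucleotide-binding subunit B, with a signal of 78.4 at -278 bp from its start, and vha-11, for subunit C, with 53.6 at -8 bp. Without the members this is 2 of 17, 11.8% (95% Wilson interval 3.29 to 34.3, counting error only). In the pooled set it is 1 of 17, vha-12, or 5.88%, near the 4.70% of all protein-coding genes in that set. At an IDR of at most 0.005 vha-11 is lost from the main set as well. Neither vha-12 nor vha-11 passed in a replicate's own set. Replicates 1 and 2 gave 42.3 and 41.7 at vha-12 and 30.2 and 32.2 at vha-11, closer pairs than those of vha-2 and vha-8. In replicate 1 the value of vha-12 was above those of vha-13 and vha-2, and in replicate 2 above those of vha-13 and vha-8.

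By sector, 4 of the 9 V1 genes and 2 of the 10 V0 genes were bound in the main set, beside 4.71% of protein-coding genes, and neither of the accessory genes vha-19 and vha-20 was. The members vha-8 and vha-13 are 2 of the 4 in V1, and vha-1 and vha-2 are both of those in V0, so nothing is read from these counts. Among the unbound V1 genes vha-10, for subunit G, came nearest to passing, with a signal of 56.3 and an IDR of 0.0147. The subunit H genes vha-15 and vha-18 had best regions of 52.7 and 28.3, and the subunit F gene vha-9 had 21.4. In V0, the third subunit c gene, vha-3, had a best region of 37.4 with an IDR of 0.535, and vha-4, for the related subunit c″, had 24.5. Of the 4 proteolipid genes vha-1 and vha-2 had a passing summit, but they were chosen by their peaks, so nothing is read from this. Of the subunit a genes, unc-32 reached 56.1 with an IDR of 0.0604, vha-6 had 34.7 and vha-5 had 15.7. The subunit d gene vha-16 had 39.4, and the accessory gene vha-19 had 32.4.

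Over the 11 unbound genes with any ranked region in the promoter, the signal of the best region ran from 15.7 to 56.3 with a median of 34.7. The 4 members, which were chosen by this signal, ran from 79.7 to 113 in the same list. Their place above the unbound genes is therefore not a finding. The bound genes outside the members had 78.4 (vha-12), close to vha-13, and 53.6 (vha-11), below the unbound vha-10 at 56.3. The genes vha-14, vha-7, vha-17 and vha-20, for subunits D, a and e and an accessory protein, had no ranked region in the promoter window of that list at all. Without the members, 13 of 17 genes had at least 1 ranked region there, 76.5% (95% Wilson interval 52.7 to 90.4), where 69.2% of protein-coding genes did.

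**Figure D4:**
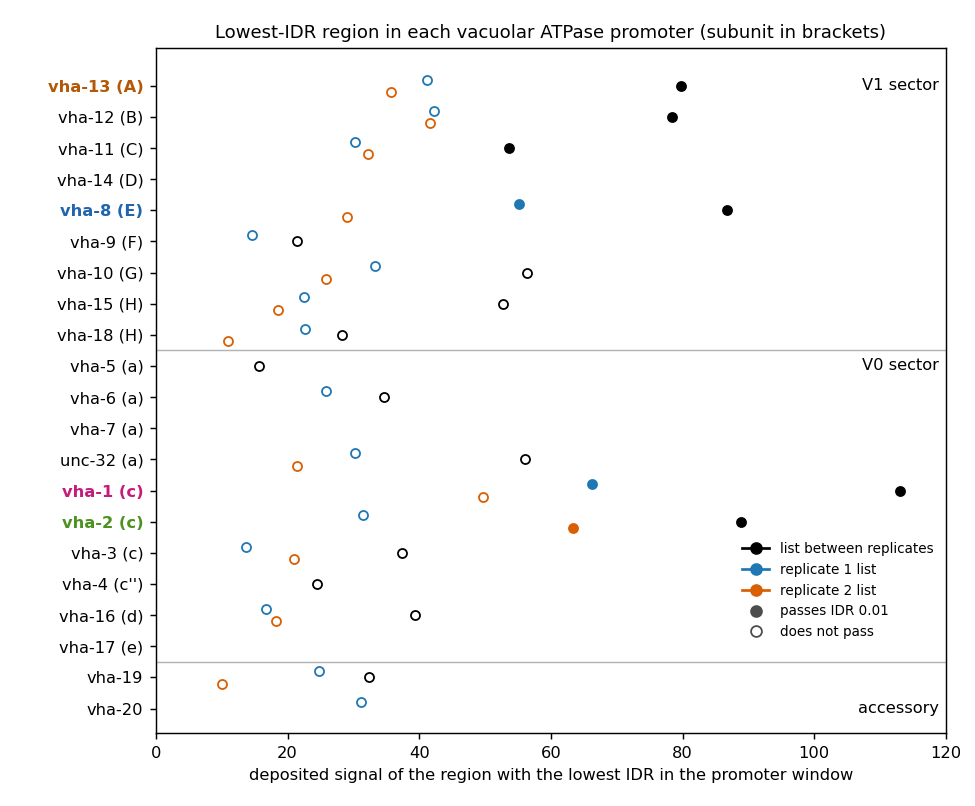
Deposited signal of the region with the lowest IDR in the promoter window of each vacuolar ATPase gene, in the list between replicates and in each replicate's own list; filled points are in the thresholded set and a missing point means no region. The 4 members are in bold, and in the list between replicates only they, vha-12 and vha-11 have filled points, from 53.6 to 113.

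Lists of genes that work with the pump had 1 or 2 bound members each. Among 20 lysosome genes, ppk-3, which encodes the phosphatidylinositol 5-kinase of late endosomes and lysosomes, was bound in the main set, with a signal of 63.1 at -153 bp. That is 5% of the list, near the 4.71% of all protein-coding genes. Of 12 genes of the TORC1, Rag GTPase and HLH-30 system, which senses the state of the lysosome, hlh-30 and mxl-3 were bound, 16.7% (95% Wilson interval 4.70 to 44.8) beside 4.71% of protein-coding genes, and with lmtr-3 there were 3 of 12 in the pooled set. The gene hlh-30 encodes the TFEB-type activator of lysosomal and autophagy genes and had 2 summits, of signal 88.7 at -287 bp and 78.7 at -103 bp from the nearest of its starts. The summit of mxl-3, which encodes a Max-like bHLH protein, had a signal of 68.2 at -256 bp. Replicate 1 alone held the peak of signal 55.1 at hlh-30, a peak at the lysosomal membrane gene lmp-1 (40.2) and a peak of signal 73.9 in the windows of both lmtr-3 and the ATP synthase gene atp-5. Replicate 2 alone held no peak at the 20 lysosome genes or the 12 TORC1 genes, beside 2.46% of protein-coding genes. With lists this short nothing is read from that absence.

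The mitochondrial ATP synthase, the other large rotary ATPase, had 2 of 10 listed genes bound, 20% beside 4.71% of protein-coding genes. The gene atp-1, for the alpha subunit, had a signal of 133 at 22 bp downstream of its start. That is higher than the signal of the best region of any vacuolar ATPase gene. Unlike each of the 4 members, atp-1 passed in both replicates' own sets, with 77.3 in replicate 1 and 62.4 in replicate 2. The gene asb-2, for a subunit b, had 72.5 at -273 bp. These lists are short, and no difference between them was tested.

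Bound genes with signals near the average of the 4 members were also listed. The likeness was the distance in log2 signal over 3 values, the main set and both replicates, to the mean of the 4, among 921 other bound genes. The nearest were C34B4.2, annotated as a fork-head domain protein, at 0.0711, W03F8.4 and gldi-8, a C2H2 zinc finger gene, at 0.0741 each, F21D12.3, annotated as an amino acid transporter, at 0.077 and the nuclear pore gene npp-3 at 0.0924. Their signals ran from 89.4 to 94.3 in the main set, from 45.6 to 48.8 in replicate 1 and up to 45.2 in replicate 2. The distances of the members from their own mean ran from 0.366 at vha-13 to 0.81 at vha-2. The 5 genes are the nearest of many, and the signals had served to choose the members, so these distances are descriptions only.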

How the data were processed

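Peak lists from ChIP-seq of 2 replicates were used as the authors deposited them, on ce11 per the labels. The authors' signal, a peak strength in unnamed units, was deposited per region and compared within lists. The deposited score is a scaled IDR, and a score of at least 830 means an IDR of at most 0.01. The authors' −log10 q column was not used for any result, and the −log10 IDR they deposited with the ranked lists was used as given. Caller and aligner: not given in the sources used here. Read depth is unknown, so no interval from depth is given.

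Summits were assigned to Ensembl release 115 transcript starts with Python 3.11.15. The assignment of summits to promoter windows, and no other step, was tested on simulated data with planted summits. The RefSeq genome is of the same assembly, and all peaks end within its chromosomes. A replicate's region was matched by the largest overlap of at least 1 bp. Wilson intervals used scipy 1.17.1. No test was run, because the values chose the members. Members, lists and words were chosen with earlier results of these data known. Named genes are the members, the other subunit genes, genes with a start within 1000 bp of a member summit, bound genes of the 3 other lists and the 5 nearest in signal. The genes cept-2, lin-9, Y49A3A.3, cyn-1 and spe-5 were added after their values had been seen. Alternatives were other windows, sets, thresholds and assignments, and each replicate alone.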

Additional observations from a re-analysis of the deposited data

How the results depend on the processing

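Of 66 values recomputed under alternatives, for 18 results, 43 stayed within the limits set and 23 moved. A value within the limits could still differ from the main one. The vacuolar ATPase count of 9 with the window of 2000 and 500 bp, beside 6 in the main setting, was among those that stayed. The share of all protein-coding genes by any overlap, 5.07% beside 4.71%, was among those that moved. All 4 members stayed bound with the window of 2000 and 500 bp, in the pooled set, at an IDR of at most 0.005 and when any overlap counted. The window of 500 and 100 bp lost vha-13, and giving each peak only to its nearest start lost vha-8, which left 3 in each case. In the upper 50% of peaks by signal, vha-1 was the 1 bound member and the 1 bound vacuolar ATPase gene, and 0 lysosome genes, 0 TORC1 genes and 1 ATP synthase gene were bound. The stricter IDR left 0 lysosome genes and 1 ATP synthase gene, and the pooled set 0 lysosome genes. The share of all protein-coding genes bound was 6.69% with the wider window, 3.49% with the narrower, 2.72% in the upper 50%, 3.96% at the stricter IDR, 5.07% by any overlap and 3.68% by nearest start.

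To leave 1 replicate out, the other replicate's own set was used. Then 1 to 2 members, 1 to 2 vacuolar ATPase genes, 0 to 1 lysosome genes, 0 to 2 TORC1 genes, 1 to 2 ATP synthase genes and 2.46% to 3.19% of all genes were bound. The bound genes changed too. The members were vha-1 and vha-8 in replicate 1 and vha-2 in replicate 2. Replicate 1 held lmp-1 and not ppk-3, lmtr-3 and not mxl-3, and atp-5 and not asb-2. Replicate signals of the members and their 0 word matches were the same under their alternatives. Over all main peaks, 100 bp on each side gave AGACGCAG in 11.4%, CTGAGCTA in 5.31%, CACGTG in 7.45% and TGATAA in 11.6%, and over promoter windows 2.14%, 0.255%, 3.11% and 20.3%. No paired analysis was possible because there is 1 group. The unknown depth limits what the absence of a peak in 1 replicate says.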

Other observations

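Some vacuolar ATPase genes have a main peak just outside the promoter window. A peak of signal 91.0 lies at -1299 bp from the start of vha-9, a peak of 160 lies at -1320 bp from that of unc-32 and in the promoter window of its neighbour lin-9, and a peak of 52.9 lies at -1080 bp from that of vha-20, its interval reaching into the window. With the window of 2000 and 500 bp these genes made the bound count 9 of 21, the 4 members included, beside 6.69% of protein-coding genes.

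Beyond its 3′ end, vha-13 is followed by 2 more main peaks. One of signal 74.4 (chrV:14354435-14354694) has its summit 143 bp past the end of vha-13, within Y49A3A.3 and its promoter window, a gene annotated as a tRNA modification enzyme, and one of 83.2 (chrV:14355797-14356056) lies in the promoter window of the cyclophilin gene cyn-1. The gene spe-5, annotated by RefSeq as a second subunit B and not part of the list, had a best region of 35.9 with an IDR of 0.383. It was added after its annotation had been seen.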
